A study of Drosophila melanogaster with 24 samples.

Results

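The comparison concerns *Drosophila* S2 cells under oxidative stress that received dsRNA against *lid*, with and without dsRNA against *Sin3A*. S2 is a cultured line that was established from late embryos and resembles hemocytes, the blood cells of the fly. The group with both dsRNAs (dual knockdown) and the group with *lid* dsRNA (*lid* knockdown) were each harvested after 4 days of dsRNA and 24 h of paraquat at 8.3 mM, and 3 biological replicates were sequenced per group. Paraquat is a herbicide that produces superoxide inside cells. The study holds 8 groups in all. Cells received dsRNA against GFP, *Sin3A*, *lid* or both, and each of these was sequenced with and without paraquat. GFP dsRNA has no target in these cells and serves as the control for RNAi itself.

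The values are FPKM, the fragments of a gene locus scaled to the length of its transcripts and to the number of mapped fragments of the library, so that levels of different loci can be compared per length. Each deposited value combines the 3 replicates of a group. No spread between replicates can therefore be given, and the reads behind single values are unknown. The members are the 7836 loci of 14542 that reached 1 FPKM in the dual knockdown, the *lid* knockdown or both. Of these, 7549 reached it in both groups, 125 in the dual knockdown alone and 162 in the *lid* knockdown alone. The members just inside the limit were *CG30495*, with 1.00 FPKM in the dual knockdown and 0.758 in the *lid* knockdown, and *CG16853*, with 0.599 and 1.01 FPKM. Just outside were *CG9813*, with 0.996 and 0.864 FPKM, and *CG15199*, with 0.640 and 0.990 FPKM. All changes are log2 ratios of the dual knockdown over the *lid* knockdown with 0.1 FPKM added to both values, which understates the change of loci of low level.

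SIN3 is a scaffold protein that holds a histone deacetylase complex together, with RPD3 as its catalytic subunit, and is best known as a repressor of transcription. The LID protein, or dKDM5, is a demethylase that removes methyl groups from trimethylated lysine 4 of histone H3, a mark of active promoters, and it joins the largest form of the SIN3 complex. Adding *Sin3A* dsRNA to *lid* knockdown cells asks which transcripts depend on SIN3 once LID is low and the cells are stressed.

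The same step from no *Sin3A* dsRNA to *Sin3A* dsRNA was taken in 4 pairs of groups that share no library: in GFP RNAi cells and in *lid* knockdown cells, each without and with paraquat. The pair in stressed *lid* knockdown cells is called the stressed *lid* pair here, and the other 3 are the GFP pair, the *lid* pair and the stressed GFP pair. A locus was called when limma gave its ratio in the stressed *lid* pair an adjusted p under 0.05, with the error taken from how far the *Sin3A* dsRNA ratios of the other 3 pairs differ among themselves. This error measures the scatter of group values between pairs and not that between cultures. A call therefore means that the ratio is large beside the scatter of the same ratio over the other conditions. It favours loci whose ratios in the other 3 pairs are alike, so such likeness among called loci is in part built in.

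*lid* transcripts followed the labels. The *lid* locus (genome build dm3, chromosome 2L, 5989463 to 5999501) reached 15.4 FPKM in stressed cells with *lid* dsRNA and 17.0 FPKM where *Sin3A* dsRNA was added. The unstressed *lid* and dual knockdowns had 14.9 and 16.9 FPKM, whereas the 4 groups without *lid* dsRNA had between 35.8 and 43.0 FPKM. The ratio of *lid* in the stressed *lid* pair was 0.15 (SE 0.09, limma adjusted p = 0.327).

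*Sin3A* transcripts, in contrast, hardly differed. The *Sin3A* locus, on chromosome 2R from 8459617 to 8480397, had 66.5 FPKM without and 58.8 FPKM with *Sin3A* dsRNA in stressed *lid* knockdown cells, a log2 ratio of -0.18 (SE 0.06, limma adjusted p = 0.124). In the GFP, *lid* and stressed GFP pairs the ratio was -0.14, -0.11 and -0.06. All 4 groups with *Sin3A* dsRNA, at 61.7 FPKM or less, lay below all 4 groups without it, at 62.0 FPKM or more, so that they nearly met. The FPKM of its own locus is thus no check of the *Sin3A* knockdown, and the groups are named by their labels throughout. The paper checked the knockdown at the protein level, and reports efficient reduction of SIN3 by western blot. It does not state whether the sequenced cultures were among those blotted.

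**Figure D1:**
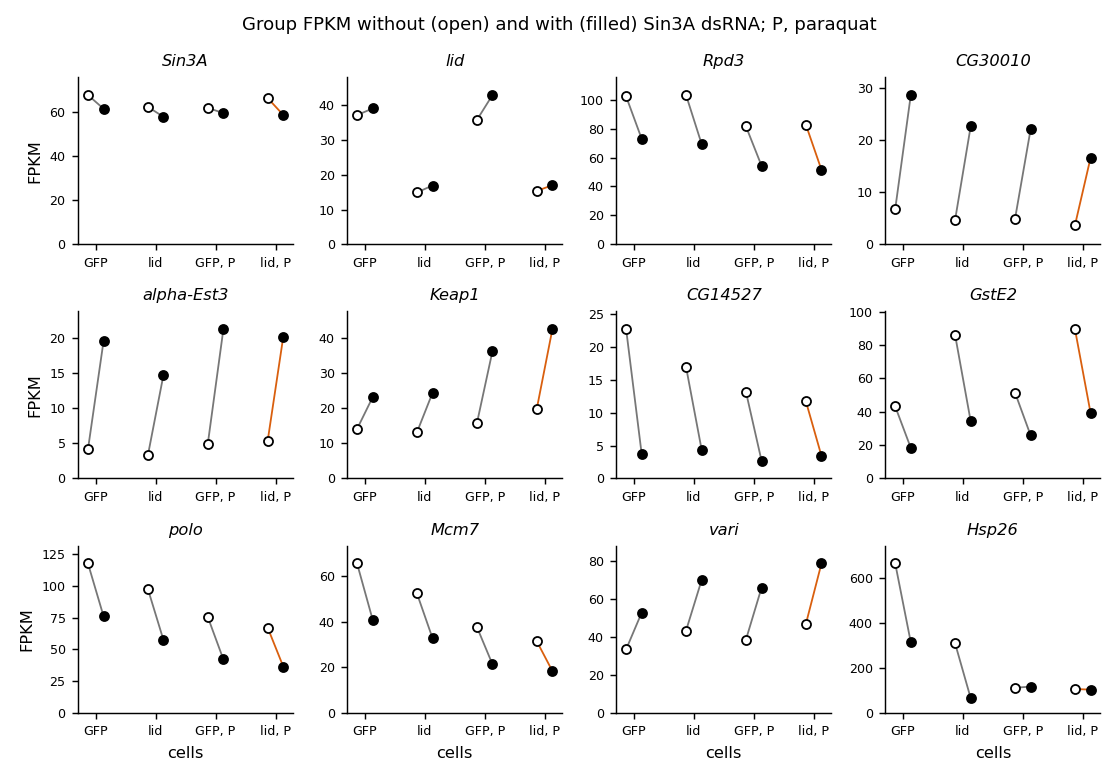
FPKM of 12 loci in the 8 groups, each panel with its own linear axis from 0. Open points are groups without and filled points groups with *Sin3A* dsRNA, joined for each of the 4 pairs (GFP, *lid*, and both with paraquat, P), and each point is 1 value that combines 3 replicates. *lid* is low in every group with *lid* dsRNA, *Sin3A* is nearly level, and *Hsp26* differs in the unstressed pairs but has 106 and 103 FPKM in the stressed *lid* pair.

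Upon addition of *Sin3A* dsRNA to stressed *lid* knockdown cells, about as many transcripts were higher as lower. The median log2 ratio of the 7836 loci was -0.01, and the middle 50% of loci lay between -0.23 and 0.20. A ratio past 1.4-fold was seen at 713 loci in the higher direction, or 9.1%, and at 776 loci in the lower direction, or 9.9%. At 2-fold these counts were 135 and 142. By limma, 440 loci rose, or 5.62%, and 377 fell, or 4.81%. At an unadjusted p under 0.05 by limma, 1325 of the 7836 loci were higher and 1422 lower. Of the called loci, 13 that rose and 8 that fell were under 1 FPKM in 1 of the groups and thus members through the group where they were high. Of all 817, 592 were also past 1.4-fold, with 327 higher and 265 lower. The calls lean on how the error is estimated: 20 loci were called without a trend of the error on the level, and with any 1 of the other 3 pairs left out 9 to 10 loci rose and 5 to 6 fell. Without the short noncoding loci described next, 1988 loci were called, among them all 796 called loci of other kinds.

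**Figure D2:**
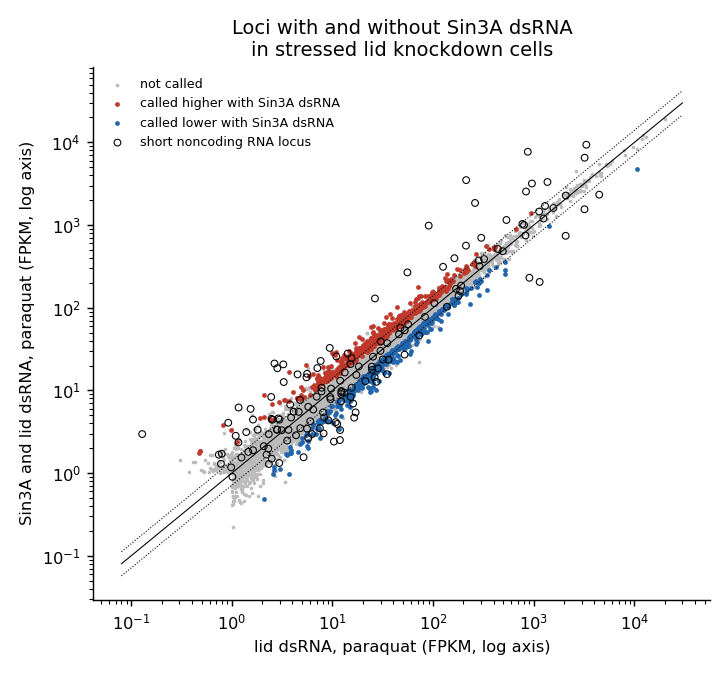
FPKM of each locus in the stressed *lid* knockdown (x, log axis) and the stressed dual knockdown (y, log axis), without the 56 loci listed at 0 in either. Coloured points were called by limma, open circles are short noncoding RNA loci, the solid line marks equal levels and the dotted lines 1.4-fold. Loci of short noncoding RNAs scatter widely at all levels, while other loci keep near the line.

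The widest ratios came from loci of short noncoding RNAs. These are 208 loci of small nucleolar RNAs, which guide the modification of ribosomal RNA, of small nuclear RNAs and of microRNA precursors, transcripts that can be shorter than a sequenced fragment. Their ratios had an SD of 4.91, against 0.38 for the other 7628 loci, and 143 of the 208 were past 1.4-fold, with 77 higher and 66 lower. All 56 loci listed at 0 in the dual or the *lid* knockdown were of this kind, and so were 114 of the 277 loci past 2-fold. The highest rise by the rule for named loci was that of *snoRNA:Me28S-G3113a*, from 213 to 3495 FPKM, and its levels in the other groups spread from 732 to 4188 FPKM. By limma 21 of the 208 loci were called, as were 796 of the other 7628.

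Among called loci of other kinds, *CG30010* rose most. This locus, on chromosome 2R from 5738208 to 5762577, rose from 3.69 to 16.6 FPKM, a log2 ratio of 2.14 (SE 0.11, limma adjusted p = 0.0190). In the other pairs its ratio was between 2.07 and 2.23. All 4 groups without *Sin3A* dsRNA, at 3.69 to 6.79 FPKM, lay below all 4 groups with it, at 16.6 to 28.7 FPKM.

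The alpha-esterases, a family of carboxylesterases encoded side by side on chromosome 3R, held further large ratios. *alpha-Est3*, from 3364694 to 3367349, rose from 5.40 to 20.2 FPKM, with a ratio of 1.88 (SE 0.10, limma adjusted p = 0.0223). Its neighbours *alpha-Est4*, with 0.808 and 3.80 FPKM (2.10), and *alpha-Est5*, with 0.478 and 1.83 FPKM (1.74), were members through the dual knockdown alone, so no test is given for them. The other 4 members of the family lay within 1.4-fold, at ratios from -0.13 for *alpha-Est8* to 0.40 for *alpha-Est1*. The remaining 3 of the 10 family loci were under 1 FPKM in both groups. Genes of this cluster resemble each other, and the alignment may have split reads between them.

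Other loci with large rises at 1 FPKM or more in both groups were named by number. The joined locus of *CG17027*, *CG17028* and *CG17029* rose from 2.08 to 8.89 FPKM, with a ratio of 2.04 (SE 0.30, limma adjusted p = 0.0402), and its value cannot be assigned to a single gene. *CG1969* rose from 9.84 to 28.2 FPKM and *CG5377* from 10.8 to 29.4 FPKM, with ratios of 1.51 and 1.44. In each of these loci the ratio was past 1.4-fold in all 4 pairs, from 1.26 to 2.07 for the joined locus and from 1.15 to 1.44 for *CG5377*.

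Among called loci at 1 FPKM or more in both groups, short noncoding loci left out, the largest fall was that of *CG14527*, on chromosome 3R from 24696328 to 24713431. It fell from 11.7 to 3.42 FPKM, a log2 ratio of -1.74 (SE 0.25, limma adjusted p = 0.0398), and its 4 values without *Sin3A* dsRNA, 11.7 to 22.6 FPKM, did not overlap the 4 values with it, 2.69 to 4.37 FPKM. *ApepP*, which encodes aminopeptidase P, fell from 27.4 to 10.2 FPKM (ratio -1.41). *Tsp96F*, a tetraspanin of the cell membrane, fell from 5.59 to 2.10 FPKM (-1.37). *Argk*, the arginine kinase that buffers ATP, fell from 2.98 to 1.11 FPKM (-1.34). *CG9691*, *CG7433*, *Fie*, *CG4019* and *CG12288* fell with ratios between -1.47 and -1.29. All of these loci were lower past 1.4-fold in each of the 4 pairs, a likeness that the call itself favours.

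Of 8 loci for subunits and partners of the SIN3 complex, limma called a single locus, where 4.81% of all loci fell and 5.62% rose. *Rpd3*, which encodes the deacetylase of the complex, lies on chromosome 3L from 4626734 to 4629467 and fell from 82.7 to 51.5 FPKM, a log2 ratio of -0.68 (SE 0.06, limma adjusted p = 0.0365). Its ratio was -0.49, -0.57 and -0.59 in the GFP, *lid* and stressed GFP pairs. *Sap130*, a subunit of the complex, had 16.1 and 23.1 FPKM, a ratio of 0.51 with a limma adjusted p of 0.0504, and was past 1.4-fold in all 4 pairs without a call. *Caf1* (also p55), a histone-binding subunit, had a ratio of -0.22 without a call, and the 8 listed subunits had a median of -0.04. Of 9 other genes for enzymes and cofactors that add or remove methyl groups at lysine 4 of histone H3, *CoRest*, a corepressor that works with the demethylase Su(var)3-3, fell from 30.8 to 21.7 FPKM (-0.50). None of the other 8 was called, and *Su(var)3-3* itself had a ratio of -0.37 with an adjusted p of 0.075. A single call in lists of 8 and 9 loci is near the shares over all loci.

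Most genes of mitosis fell. Of 37 loci for mitotic kinases, cyclins, kinetochore and condensin subunits and cytokinesis factors, 23 fell and none rose by limma, 24 were lower past 1.4-fold, and 36 had a ratio below 0. Over all loci 4.81% fell and 5.62% rose by limma, and 9.9% were lower past 1.4-fold. The median ratio of the list was -0.60, against -0.01 over all loci, and -0.48, -0.52 and -0.63 in the GFP, *lid* and stressed GFP pairs. *polo*, the mitotic kinase of the centrosome and kinetochore, lies on chromosome 3L from 20302754 to 20306566. It fell from 66.9 to 36.3 FPKM, with a ratio of -0.88 (SE 0.09, limma adjusted p = 0.0365), and the stressed dual knockdown had the lowest *polo* level of all 8 groups, while GFP RNAi had the highest, 118 FPKM. *CAP-D2*, a condensin subunit, fell from 10.8 to 5.32 FPKM, the lowest ratio of the list. *Sse*, which encodes separase, the protease that releases sister chromatids, fell from 7.91 to 4.28 FPKM (-0.87). *cdc2*, the mitotic cyclin-dependent kinase, fell from 56.8 to 37.4 FPKM (-0.60). *CycB*, its cyclin, fell from 85.2 to 66.7 FPKM (-0.35), whereas *CycA* had a ratio of -0.29 without a call. *Spc105R*, a kinetochore scaffold, had 5.42 and 2.95 FPKM, and its ratio of -0.85 missed the call at an adjusted p of 0.058. *Bub1* was the member above 0, with a ratio of 0.11.

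DNA replication genes followed with smaller ratios. Of 41 loci, 14 fell and none rose by limma, 16 were lower past 1.4-fold and 38 had a ratio below 0, with a median of -0.44. The limma shares over all loci were 4.81% lower and 5.62% higher, and 9.9% were lower past 1.4-fold. *Mcm7*, a subunit of the replicative helicase on chromosome 3L from 8884696 to 8887410, fell from 31.4 to 18.3 FPKM, with a ratio of -0.78 (SE 0.08, limma adjusted p = 0.0365). *Mcm5*, another helicase subunit, fell from 24.7 to 14.6 FPKM (-0.76). *DNA-ligI*, the ligase that joins Okazaki fragments, fell from 16.6 to 10.1 FPKM (-0.71). *RnrL* and *RnrS* encode the large and small subunits of ribonucleotide reductase. *RnrL* fell with a ratio of -0.58, while *RnrS* had 127 and 128 FPKM (0.02). The medians of the list in the GFP, *lid* and stressed GFP pairs were -0.41, -0.35 and -0.48.

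Of 6 further regulators of the cell cycle that the text names, all had ratios below 0 and some were called. *Cdk4*, the kinase of cyclin D, fell from 20.5 to 12.5 FPKM (-0.71), and the locus shared by *grp*, which encodes the checkpoint kinase Chk1, and *squ* fell from 94.8 to 65.3 FPKM (-0.54). *CycE*, the cyclin of S phase entry, had 17.8 and 14.2 FPKM (-0.32), its partner kinase *cdc2c* 35.4 and 21.9 FPKM (-0.69) and their inhibitor *dap* 26.3 and 22.3 FPKM (-0.23), none of which was called. The phosphatase *stg*, which activates the mitotic kinase, had 13.4 and 11.1 FPKM (-0.26) without a call.

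Septate junctions seal epithelia of the fly. Of 18 loci for their components, 7 rose and none fell by limma, where 5.62% of all loci rose and 4.81% fell. The median ratio of the list was 0.40, against 0.56, 0.58 and 0.42 in the GFP, *lid* and stressed GFP pairs. *vari*, a scaffold of the junction on chromosome 2L from 20787656 to 20797042, rose from 46.9 to 78.9 FPKM, with a ratio of 0.75 (SE 0.07, limma adjusted p = 0.0365). *Gli* (gliotactin) rose from 39.1 to 62.7 FPKM (0.68), *Tsf2* (melanotransferrin) from 39.0 to 60.6 FPKM (0.63) and *Cont* (contactin) from 74.2 to 111 FPKM (0.58). *Nrx-IV*, the neurexin of the junction, rose from 70.7 to 96.4 FPKM (0.45). *sinu*, a claudin, had 25.4 and 39.8 FPKM and a ratio of 0.64, with an adjusted p of 0.051. At the other end, *bou* had 1.81 and 0.527 FPKM (-1.60) without a call. The 4 groups without *Sin3A* dsRNA reached between 33.5 and 46.9 FPKM for *vari* and the 4 groups with it between 52.9 and 78.9 FPKM.

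**Figure D3:**
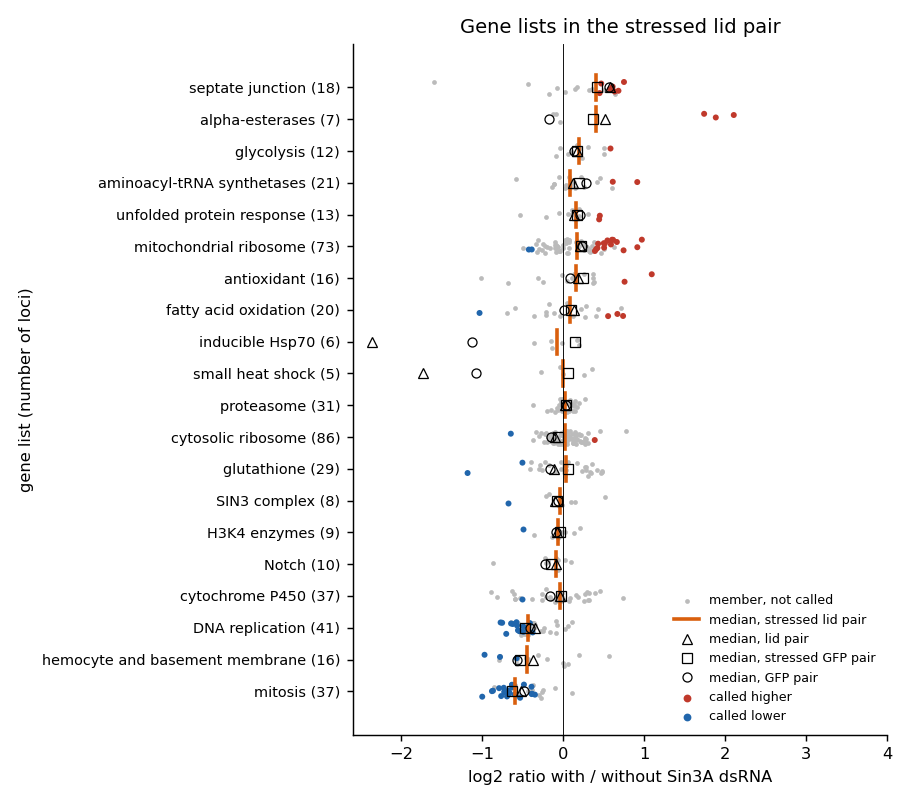
Log2 ratio in the stressed *lid* pair of each locus of 20 gene lists, with red and blue points for loci called higher and lower and grey points for those not called. Orange bars are the list medians in the stressed *lid* pair, and open triangles, squares and circles those in the *lid*, stressed GFP and GFP pairs. The mitosis and DNA replication medians lie between -0.35 and -0.63 in all pairs, whereas the heat shock medians near 0 in both stressed pairs are between -1.08 and -2.36 in the unstressed pairs.

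Of the loci for mitochondrial ribosomal proteins, which translate the genes of the mitochondrial genome, 15 of 73 rose and 2 fell, and the median was 0.16. Among all loci 5.62% rose and 4.81% fell. *mRpL40* rose from 28.6 to 56.1 FPKM (0.97), *mRpS6* from 17.3 to 32.7 FPKM (0.91) and *mRpS18C* from 32.6 to 54.7 FPKM (0.74), while *mRpS10* fell from 53.7 to 39.9 FPKM (-0.43). Of the 86 loci for cytosolic ribosomal proteins, 1 rose and 1 fell, with a median of 0.03. *RpL24-like*, which acts in assembly of the large subunit, rose from 186 to 243 FPKM (0.39), and the variant *RpS19b* fell from 8.85 to 5.61 FPKM (-0.65). No call was made by limma among the 31 proteasome loci, whose ratios lay between -0.37 for *Rpt6R* and 0.27 for *Prosbeta7*, with 2 higher and 2 lower at an unadjusted p under 0.05. At that limit 1325 of all 7836 loci were higher and 1422 lower.

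Of 63 metabolic loci in the next 4 lists, 7 rose, or 11.1%, and 2 fell, or 3.17%, against 5.62% and 4.81% of all loci. *Aats-tyr* and *Aats-cys*, the synthetases that charge tRNAs with tyrosine and cysteine, rose from 66.9 to 126 FPKM (0.91) and from 54.4 to 83.2 FPKM (0.61), as the called members among 21 loci of that list. In the methionine cycle, *Ahcy13*, which breaks down S-adenosylhomocysteine, rose from 213 to 317 FPKM (0.58). *Sam-S*, which makes S-adenosylmethionine, the methyl donor of histone methylation, had 347 and 567 FPKM, and its ratio of 0.71 was not called (adjusted p = 0.061) although it was past 1.4-fold in all 4 pairs. *pug*, a folate enzyme that shares its locus with *CG14683*, fell (-0.41). *Pfk*, the phosphofructokinase of glycolysis, rose from 71.8 to 108 FPKM (0.58) and was the called member of 12 glycolytic loci, of which *ImpL3*, the lactate dehydrogenase, had a ratio of 0.50 without a call. Of 20 loci for fatty acid oxidation, 3 rose, among them *CG2107* from 27.7 to 46.2 FPKM (0.74) and *yip2*, a thiolase, from 96.8 to 154 FPKM (0.67). *CG3961* of the same list fell from 3.51 to 1.66 FPKM (-1.04).

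Of 95 loci for antioxidant enzymes, glutathione transferases, cytochrome P450 enzymes and the unfolded protein response, 4 rose, or 4.21%, and 3 fell, or 3.16%, against 5.62% and 4.81% of all loci. *Keap1*, the inhibitor of the antioxidant regulator encoded by *cnc*, lies on chromosome 3R from 12899662 to 12905665. It rose from 19.8 to 42.4 FPKM, with a ratio of 1.09 (SE 0.19, limma adjusted p = 0.0441), and the stressed dual knockdown had the highest *Keap1* level of the 8 groups. *cnc* itself had 21.0 and 27.4 FPKM (0.38) without a call. *PHGPx*, a glutathione peroxidase homologue, rose from 264 to 446 FPKM (0.76). *Sod3*, the extracellular superoxide dismutase, had 6.31 and 3.90 FPKM (-0.68) without a call, and the 2 called members of the 16 antioxidant loci were *Keap1* and *PHGPx*.

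Of the 29 loci for glutathione transferases and glutathione synthesis, 2 fell and none rose by limma, where 4.81% of all loci fell and 5.62% rose. *GstE2*, on chromosome 2R from 14286998 to 14287880, fell from 89.5 to 39.4 FPKM, with a ratio of -1.18 (SE 0.13, limma adjusted p = 0.0365). In all 4 pairs *GstE2* was lower with *Sin3A* dsRNA, by -0.99 to -1.32. *GstE13* fell from 33.1 to 23.3 FPKM (-0.51). *GstE6*, which lies from 14293518 to 14294266 near *GstE2*, and *GstE11*, at 14391115 to 14392349, had ratios of 0.47 and 0.48 without a call. Among 37 cytochrome P450 loci, *Cyp9f2* fell from 73.8 to 51.8 FPKM (-0.51), none rose, and 8 were lower past 1.4-fold against 1 higher. Past 1.4-fold, 9.9% of all loci were lower and 9.1% higher. Of 13 loci of the unfolded protein response, *Herp*, a factor of degradation at the endoplasmic reticulum, rose (0.45), as did *Gp93*, its Hsp90 homologue in the lumen (0.44).

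Of 13 regulators of growth and damage responses limma called none, with 3 higher and 3 lower at an unadjusted p under 0.05. Over all 7836 loci, 5.62% rose and 4.81% fell by limma. At an unadjusted p under 0.05, 1325 of them were higher and 1422 lower. In this list and the next lists, which are short, no call at all is near these shares. *Thor*, which encodes the translation inhibitor 4E-BP, had 322 and 465 FPKM (0.53), and *Gadd45*, a growth arrest factor, 9.42 and 13.5 FPKM (0.51). *Sesn*, the sestrin gene, had 10.5 and 6.04 FPKM, a ratio of -0.79 with an adjusted p of 0.12, and its ratios in the other pairs spread from -1.02 to -1.73. Toll and Imd immune genes likewise had no call by limma among 18 loci, 5 of which reached an unadjusted p under 0.05, and *AttB*, an antimicrobial peptide gene, had the largest ratio, 0.96, with 5.38 and 10.6 FPKM. None of 10 Notch pathway loci was called by limma, with 1 at an unadjusted p under 0.05. The receptor gene *N* had 3.49 and 1.87 FPKM, a ratio of -0.87 that missed the call (adjusted p = 0.054). It was lower past 1.4-fold in all 4 pairs, at -1.02 to -1.32 in the other 3.

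The ratios of heat shock genes were near 0 in the stressed *lid* pair. Small heat shock proteins and Hsp70 are chaperones that hold and refold damaged proteins. In the stressed *lid* pair none of 5 small heat shock loci and none of 6 loci of inducible *Hsp70* and *Hsp68* was called by limma, reached an unadjusted p under 0.05 or was past 1.4-fold, with ratios from -0.36 to 0.36. Over all 7836 loci, 5.62% rose and 4.81% fell by limma, and 9.1% were higher and 9.9% lower past 1.4-fold. At an unadjusted p under 0.05, 1325 were higher and 1422 lower. *Hsp26* had 106 and 103 FPKM (-0.04), *Hsp23* 167 and 139 FPKM (-0.27), *Hsp27* 61.0 FPKM in both groups (0.00, and -0.02 when values were centred on their medians) and *Hsp70Bb* 9.52 and 8.59 FPKM (-0.15). The median was 0.00 for the small heat shock list and -0.08 for the *Hsp70* list. In the stressed GFP pair the medians were 0.06 and 0.14. In the unstressed *lid* pair they were -1.73 and -2.36, and in the unstressed GFP pair -1.08 and -1.12. *Hsp26*, for one, had 309 and 64.7 FPKM in the *lid* pair and 667 and 315 FPKM in the GFP pair.

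The levels of these genes in the groups without *Sin3A* dsRNA also differed, since the stressed *lid* knockdown had 106 FPKM of *Hsp26* and the unstressed one 309 FPKM. With ratios this unlike in the other 3 pairs the errors were wide, 0.80 for *Hsp26*, and the ratio of the stressed *lid* pair did not differ from the mean of the other pairs by limma (adjusted p = 0.912). The difference between the 2 stressed and the 2 unstressed pairs was not tested. The copies of *Hsp70* are nearly identical, and reads could be split among them. Of 10 constitutive chaperones, cochaperones and the heat shock factor, none was called by limma and 1 reached an unadjusted p under 0.05. By limma 5.62% of all 7836 loci rose and 4.81% fell, and 1325 were higher and 1422 lower at that unadjusted p. The largest ratio of the list was that of *stv*, a cochaperone of Hsp70, with 26.2 and 39.1 FPKM (0.58).

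Genes of hemocytes and of the basement membrane were lower in median. S2 cells express these genes by origin, and 16 of the 17 listed loci reached 1 FPKM in every group, *Hml* being the exception. Their median ratio was -0.45, and 3 fell by limma while none rose, with 10 lower and 2 higher at an unadjusted p under 0.05. By limma 4.81% of all loci fell and 5.62% rose. At an unadjusted p under 0.05, 1422 of all 7836 loci were lower and 1325 higher. *Pxn*, which encodes peroxidasin, a matrix peroxidase made by hemocytes, fell from 46.4 to 23.6 FPKM (-0.97). *Sr-CI*, a scavenger receptor for bacteria, fell from 87.5 to 50.8 FPKM (-0.78), and *trol*, the perlecan of the basement membrane, from 37.6 to 25.2 FPKM (-0.58). *vkg*, a chain of collagen IV, had 62.0 and 35.6 FPKM (-0.80) and *nimC1*, a phagocytosis receptor, 4.48 and 2.56 FPKM (-0.79), both without a call. *srp*, the GATA factor of blood cells, had 60.4 and 52.6 FPKM (-0.20), *eater*, a phagocytosis receptor, 31.9 and 33.2 FPKM (0.06), and *glec*, which encodes gliolectin, 24.2 and 35.9 FPKM (0.57). The summed level of the list was 2086 FPKM without and 1606 FPKM with *Sin3A* dsRNA. Fewer cells of a kind and less RNA per cell cannot be told apart in such samples.

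Markers of neurons, muscle, fat body and germ line were near 0 in both groups. Their 10 loci summed to 6.02 and 6.62 FPKM, of which *elav* held 3.58 and 4.83 FPKM. *Lsp1alpha* was listed at 0 in both groups, and *Act88F*, a flight muscle actin, at 0.0921 and 0 FPKM.

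Of the 32 loci that the study names in its transcript and binding results, 31 were members and *CG31819* was listed at 0 in both groups, and 5 rose and 7 fell by limma. Over all loci the limma shares were 5.62% higher and 4.81% lower. The study chose many of these genes on the same samples, so their counts are not independent evidence of a direction. *CG31819* serves it as a negative control of binding. Beside those given above, *wb*, which encodes a laminin subunit, fell from 8.43 to 4.69 FPKM (-0.83), and *mRpL19* rose from 36.4 to 57.7 FPKM (0.66). The study uses the *wb* promoter as a control for histone marks and describes *wb* as no target of SIN3 or LID. The *wb* transcript was lower past 1.4-fold in all 4 pairs, at ratios from -0.83 to -0.78. *CG3476* had 33.7 and 53.2 FPKM (0.66) without a call. *Dad*, an inhibitor of Dpp signalling, had 9.04 and 9.85 FPKM (0.12), where the other 3 pairs had ratios from -0.89 to -0.32.

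The position of a locus in the genome went with its ratio. On the 4 major autosome arms the median ratio of 6221 loci, short noncoding loci left out, was 0.03, with 46.6% of loci below 0. On chromosome X the median of 1288 loci was -0.14 with 68.9% below 0, and on chromosome 4, a short and largely heterochromatic autosome, the median of 74 loci was -0.32 with 67 loci, or 90.5%, below 0. Past 1.4-fold, 3.34% of X loci were higher and 13.7% lower. On chromosome 4 none was higher and 18 loci, or 24.3%, were lower. On the 4 major autosome arms, in contrast, between 9.10% (2L) and 9.97% (3L) were higher and between 7.08% (2R) and 9.89% (2L) lower. Over all loci, short noncoding ones included, these shares were 9.1% and 9.9%. By limma, 14 of the 74 loci of chromosome 4 fell and none rose, beside 4.81% and 5.62% of all loci. The medians on X and 4 in the other pairs were -0.15 and -0.30 (GFP pair), -0.11 and -0.26 (*lid* pair) and -0.16 and -0.32 (stressed GFP pair).

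On chromosome 4 the lowest ratio was that of *dpr7*, an immunoglobulin family gene, which fell from 6.93 to 3.00 FPKM (-1.18). *CG31999* fell from 69.1 to 38.9 FPKM (-0.83). *yellow-h* had 43.2 and 20.2 FPKM (-1.09) without a call, and *Rad23*, a shuttle of the proteasome, was highest with 277 and 322 FPKM (0.21). Among genes of the dosage compensation complex, which raises transcription of the X chromosome in male flies and male cell lines, none of 6 loci was called by limma and 2 were lower at an unadjusted p under 0.05. By limma 5.62% of all 7836 loci rose and 4.81% fell, and 1325 were higher and 1422 lower at that unadjusted p. *mof*, its acetyltransferase, had 10.3 and 7.54 FPKM (-0.44), the noncoding RNA *roX2* 110 and 88.5 FPKM (-0.31), and *msl-2* 28.0 and 34.0 FPKM (0.28). Their part in the medians by chromosome was not tested.

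**Figure D4:**
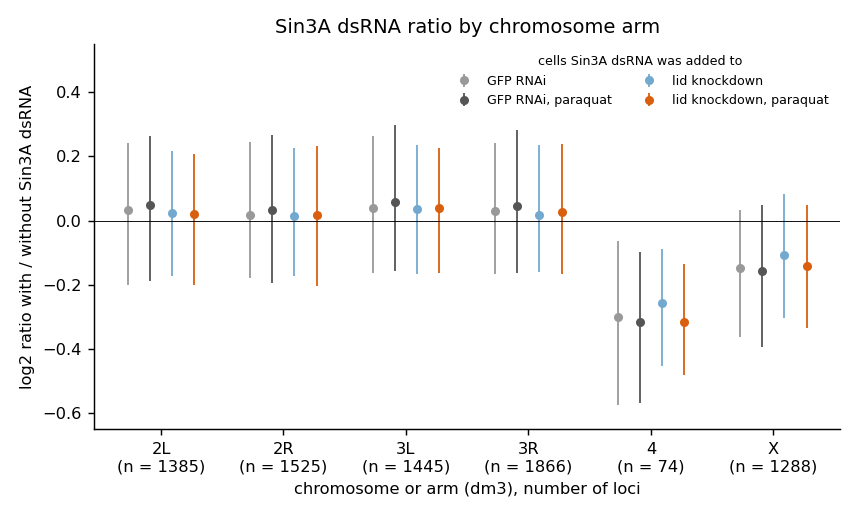
Median log2 ratio with over without *Sin3A* dsRNA (points) and its middle 50% of loci (bars) on each chromosome arm, without short noncoding loci, in the 4 pairs. The medians of chromosome 4 and of X lie below 0 in every pair, at -0.32 and -0.14 in the stressed *lid* pair, while those of the 4 major autosome arms lie slightly above 0.

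Loci of low level leaned to lower ratios. Among the 1907 loci of lowest level, the first of 4 classes of this size without short noncoding loci, 21.8% were lower past 1.4-fold and 11.4% higher, and the median ratio was -0.12. Among the 1907 loci of highest level the shares were 2.73% and 5.51% and the median 0.03. In 4 classes by the width of the locus, over loci of a single gene at 1 FPKM in both groups, the medians lay between -0.02 and 0.00.

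The ratios of the stressed *lid* pair resembled those of the other pairs locus by locus. Over the 7287 loci that reached 1 FPKM in all 8 groups, Spearman's rho with the stressed *lid* pair was 0.87 for the stressed GFP pair, 0.87 for the *lid* pair and 0.75 for the GFP pair, and Pearson's r was 0.83, 0.79 and 0.75. The points are loci and not replicates. The sign was the same at 84.9%, 85.9% and 77.6% of these loci. The ratios were of similar size, with a median absolute log2 ratio of 0.20 in the stressed *lid* pair, 0.23 in the stressed GFP pair, 0.20 in the *lid* pair and 0.21 in the GFP pair. Past 1.4-fold lay 16.3% of the loci in the stressed *lid* pair, 21.6% in the stressed GFP pair, 17.1% in the *lid* pair and 20.7% in the GFP pair.

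Of all 7836 loci, 373 were higher past 1.4-fold in all 4 pairs, or 4.76%, and 408 lower, or 5.21%. They made up 52.3% of the 713 loci that were higher past 1.4-fold in the stressed *lid* pair and 52.6% of the 776 that were lower. Leaving out short noncoding loci, the stressed *lid* pair shared 511 higher loci with the stressed GFP pair, 80.3% of its own 636 and 62.2% of the 821 there. It shared 602 lower loci, 84.8% of 710 and 66.4% of 906. With the GFP pair it shared 439 higher loci, 69.0% of its own and 56.4% of those there.

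**Figure D5:**
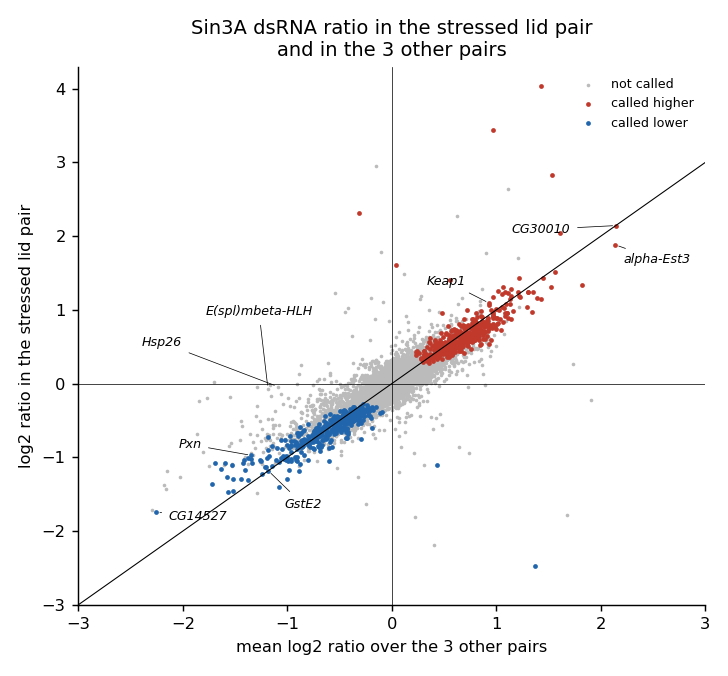
Log2 ratio of each locus in the stressed *lid* pair (y) against its mean over the 3 other pairs (x), for the 7287 loci at 1 FPKM or more in all 8 groups, with called loci in colour and the line of equal ratios. Most called loci lie along the line, *CG30010* and *CG14527* among its ends, and *Hsp26* lies near 0 in the stressed *lid* pair and below -1 in the mean of the others.

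Differences between the stressed *lid* pair and the other pairs were found at few loci. By the interaction term in limma, 9 loci differed from the mean of the other 3 pairs, or 0.115% of those tested, and 133 did at an unadjusted p under 0.05. All 9 are short noncoding loci, and 8 of them were listed at 0 in all of the other 6 groups. These 8 were members through 1 group alone and the other pairs had no scatter, so their calls follow from the filter and carry no weight as a test. The remaining one, *snoRNA:Me28S-G2703a*, fell from 1144 to 205 FPKM in the stressed *lid* pair, where the other pairs had higher values with *Sin3A* dsRNA, at ratios of 1.28 to 1.52. When short noncoding loci were left out, limma called 0 loci by this term, with 221 at an unadjusted p under 0.05. A difference at other loci was therefore not detectable against the scatter between pairs, which does not show that *Sin3A* dsRNA acted alike in them.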

How the data were processed

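Paired 50-base reads of 24 libraries were aligned by the authors to dm3 with Bowtie and TopHat and analysed with Cufflinks and Cuffdiff, whose versions are not given in the sources used here. The authors deposited 7 Cuffdiff tables of 14542 loci in FPKM, each setting 1 group beside GFP RNAi, with the 3 replicates combined. Their columns of fold changes, test statistics, p-values and q-values were not used.

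Values were joined by locus identifier, and the GFP RNAi column did not differ between tables. Starts are given counting from 1. The 8 group values, as log2(FPKM + 0.1), were fitted with limma 3.58.1 in R 4.3.3 (terms for pair, *Sin3A* dsRNA and its interaction with the stressed *lid* pair, mean-variance trend), with Benjamini-Hochberg adjustment over 7836 loci. The residual has 2 degrees of freedom, moderated across loci. The other 3 pairs are thus assumed to scatter like the stressed *lid* pair. Named loci are *Sin3A*, *lid*, the 10 largest called rises and falls past 1.4-fold at 1 FPKM in both groups, interaction calls, up to 4 loci per list with the largest absolute ratio at 1 FPKM in both groups, and genes the study names. Other loci were named after their values were seen, as were all loci of chromosome 4. Members and lists were chosen with earlier results of these data known. The fit was also run on simulated data with known changes. Those data held no locus listed at 0 in any group, and their noise was smoothed over the level. They therefore cannot show how far the calls hold in the real data. Alternatives are a pseudocount of 1 FPKM, other level filters, no trend, median centring, a common effect, leaving out a pair, stricter thresholds and, chosen after seeing the data, leaving out short noncoding loci. Sequences were not used here.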

Additional observations from a re-analysis of the deposited data

Results flagged for a closer look

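At 9 short noncoding loci the ratio in the stressed *lid* pair was set apart from the mean of the other 3 pairs by the interaction term in limma. For 8 of them this is no test, since each was a member through 1 group alone and the other pairs, listed at 0, had no scatter. *mir-1011* had 23235 FPKM in the stressed *lid* knockdown, *snRNA:U7* 945 FPKM and *snoRNA:Me28S-U3344a* 197 FPKM, and all 3 were listed at 0 in the other 7 groups. *mir-2a-1* had 571 FPKM in the stressed dual knockdown, *snoRNA:Me18S-A469* 127 FPKM, *mir-980* 86.2 FPKM, *mir-284* 80.8 FPKM and *snoRNA:Me18S-C1024* 45.6 FPKM, and these 5 were listed at 0 in the other 7 groups. *snoRNA:Me28S-G2703a* had 1144 FPKM in the stressed *lid* knockdown and 205 FPKM in the stressed dual knockdown, and 471 to 1509 FPKM elsewhere (limma adjusted p = 0.00867). The reads behind these values are unknown.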

How the results depend on the processing

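No paired analysis was possible because each deposited value combines the 3 replicates, so that neither the replicate numbers could be used for pairing nor a replicate left out. The number of loci called higher and lower by limma went from 440 and 377 to 14 and 6 without a trend, to 1 and 2 at an adjusted p under 0.01, and to 9 to 10 and 5 to 6 when any 1 of the other pairs was left out, which leaves 1 residual degree of freedom. It went to 2259 and 2266 for a common effect over the 4 pairs (2191 and 2215 without a trend), of which 797 are among the 817, and to 1002 and 986 without short noncoding loci. Without those and without a trend, 588 rose and 617 fell, and 742 of the 796 other loci were still called. The remaining alternatives kept both counts within 1.5 times. Past 2-fold lay 135 and 142 loci, and the counts past 1.4-fold of 713 and 776 stayed within 1.5 times under the other alternatives. The interaction called 4 loci after median centring, 0 without short noncoding loci, and 1 to 9 with a pair left out, the lowest without the GFP pair. Among 149 named loci, 67 were called. Of these calls 53 were lost without a trend, 58 without the GFP pair, 58 without the stressed GFP pair and 59 without the *lid* pair. In sign, *Hsp27* turned from 0.00 to -0.022 under median centring, and the proteasome median from 0.01 to -0.01. Except where fewer loci or pairs were fitted, the cause of these differences was not tested. The paper gives an approximate depth of sequencing, but the reads behind single values are unknown, and no limit from counting error was worked out.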

Other observations

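Some loci were past 1.4-fold in the other 3 pairs and not in the stressed *lid* pair, short noncoding loci left out. There were 91 such loci among 461 that were higher in the other 3 pairs and 72 among 477 that were lower, and none was past 1.4-fold in the opposite direction. The following loci were chosen after their values were seen. *E(spl)mbeta-HLH*, a repressor gene induced by Notch signalling, had 6.22 and 5.92 FPKM in the stressed *lid* pair (-0.07), and -0.96 to -1.61 in the other pairs. *CG2444* had 2.61 and 2.29 FPKM (-0.18), and -0.99 to -2.13 in the other pairs. *CG16758* had 13.6 and 11.9 FPKM (-0.19), against -0.56 to -1.63. Without *Sin3A* dsRNA, *CG2444* had 10.4 FPKM in stressed GFP RNAi and 2.61 FPKM in the stressed *lid* knockdown. The interaction was not called for any of the 3 (limma adjusted p = 0.912).

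In the other direction, 39 of the 636 loci higher past 1.4-fold in the stressed *lid* pair, or 6.13%, and 60 of the 710 lower, or 8.45%, lay within 1.4-fold in each of the other pairs, which is 0.511% and 0.787% of 7628 loci. *mgl*, which encodes the endocytic receptor megalin, fell from 15.5 to 9.83 FPKM (-0.65, limma adjusted p = 0.0392), and *CG18190* from 9.47 to 5.59 FPKM (-0.75, adjusted p = 0.0447). Both were lower in the other pairs as well, within 1.4-fold, and their interaction was not called (adjusted p = 0.912).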
